A study of Homo sapiens with 2 samples.

Results

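The kinase CDK1 and 9 of its direct partners and regulators were examined in MRC-5 lung fibroblasts with and without knockdown of periostin. The 10 genes were chosen by name, out of 21743 genes that could be named on the array. Of these, 8 count here as activators, namely CDK1 itself, the cyclins CCNB1 and CCNB2, the phosphatases CDC25B and CDC25C, the small CDK-binding proteins CKS1B and CKS2, and the Greatwall kinase MASTL. The other 2, WEE1 and PKMYT1, are the inhibitory kinases. Each gene was represented by every spot whose RefSeq accession belongs to it, which gave 13 probes on 31 spots.

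MRC-5 cells are a long-established fibroblast line from human fetal lung. The control group was 1 culture that received control siRNA, and the other group was 1 culture that received siRNA against periostin at 10 nM for 48 h. Total RNA of each was labelled with Cy3 and hybridized to 1 single-colour Agilent array. The labels give neither the dose of the control siRNA on this array nor the siRNA sequences, so an effect of silencing periostin and an effect of 1 siRNA or 1 culture cannot be told apart. With 1 array per group there was no replicate culture, no difference could be tested and p-values are not given. Signals are brightness in arbitrary units after both arrays were brought to a common 75th percentile, and changes are log2 ratios of periostin siRNA over control siRNA. The ± after a ratio is the SD between the 10 spots of a repeated probe, or, for a probe printed once, the error that the scanner software propagates for its spots, and neither holds the difference between cultures. POSTN, the gene targeted by the siRNA, had a signal of 2599 with control siRNA and of 276 with periostin siRNA, 9.43-fold lower (log2 ratio -3.24 ± 0.20).

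CDK1 is the kinase that drives cells from G2 into mitosis. At the onset of mitosis its main partners are the B-type cyclins, and it becomes active once the inhibitory phosphates that WEE1 and PKMYT1 place next to its catalytic site have been removed by CDC25 phosphatases. Active CDK1 in turn activates CDC25C and inhibits WEE1, so that the kinase switches on abruptly. MASTL protects the mitotic phosphorylations by holding back the phosphatase PP2A-B55, and the CKS proteins dock CDK1 onto substrates that are already phosphorylated. Transcription of many of these genes rises in G2, through promoters that hold a cell cycle homology region near the start site and CCAAT boxes bound by NF-Y a little upstream.

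Because several members moved together, the stretch of 120 bases before an annotated start is shown for the 8 members found in the RefSeq promoter set of GRCh38.p14. Capitals mark TTTGAA, the most common core of the cell cycle homology region, its variant TTCGAA, and CCAAT. On the other strand TTTGAA reads TTCAAA and CCAAT reads ATTGG, while TTCGAA reads the same on both. No matches overlapped in these stretches. The stretches are written 5′ to 3′ on the strand of the gene and end at the base before the start. Where a gene had several annotated starts, the one whose stretch held the most matches is shown, which favours matches in CDK1, CDC25C and CDC25B. The first 5 hold both TTTGAA and CCAAT. Of the 3, CCNB1 holds CCAAT alone, CDC25B holds TTCGAA with CCAAT, and MASTL holds none. Other variants of the cell cycle homology region were not searched, so their absence from a stretch is not shown.
CDK1: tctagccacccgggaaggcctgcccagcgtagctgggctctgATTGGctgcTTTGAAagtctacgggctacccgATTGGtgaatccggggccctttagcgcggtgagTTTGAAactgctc
CCNB2: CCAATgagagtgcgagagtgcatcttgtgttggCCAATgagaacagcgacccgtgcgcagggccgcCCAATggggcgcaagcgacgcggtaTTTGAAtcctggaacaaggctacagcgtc
CDC25C: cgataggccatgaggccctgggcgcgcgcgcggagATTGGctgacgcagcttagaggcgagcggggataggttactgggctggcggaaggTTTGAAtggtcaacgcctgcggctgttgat
CKS1B: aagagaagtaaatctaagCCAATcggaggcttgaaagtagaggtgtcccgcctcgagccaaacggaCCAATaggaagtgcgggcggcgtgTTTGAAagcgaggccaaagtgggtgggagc
CKS2: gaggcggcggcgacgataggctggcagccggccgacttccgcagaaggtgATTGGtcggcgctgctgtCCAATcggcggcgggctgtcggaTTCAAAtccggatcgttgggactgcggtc
CCNB1: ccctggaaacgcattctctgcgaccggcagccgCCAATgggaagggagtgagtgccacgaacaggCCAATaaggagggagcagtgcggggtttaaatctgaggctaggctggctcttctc
CDC25B: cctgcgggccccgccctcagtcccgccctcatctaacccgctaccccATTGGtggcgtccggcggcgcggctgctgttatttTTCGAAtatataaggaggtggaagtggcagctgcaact
MASTL: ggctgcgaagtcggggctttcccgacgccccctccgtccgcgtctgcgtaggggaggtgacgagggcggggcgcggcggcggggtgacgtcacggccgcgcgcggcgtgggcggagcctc

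These stretches lie at chr10:60778358-60778477 (plus strand) for CDK1, chr15:59105026-59105145 (plus strand) for CCNB2, chr5:138331805-138331924 (minus strand) for CDC25C and chr1:154974561-154974680 (plus strand) for CKS1B. Those of CKS2, CCNB1, CDC25B and MASTL lie at chr9:89311075-89311194 (plus strand), chr5:69167030-69167149 (plus strand), chr20:3796190-3796309 (plus strand) and chr10:27155232-27155351 (plus strand). In CCNB2, CDC25C, CKS1B and CKS2 the TTTGAA match began at position -29 or -30, counted from the start, and in CDK1 matches began at -69 and -13. The CCAAT matches nearest to the start began at -46 in CDK1, -54 in CCNB2 and CKS1B, -52 in CKS2, -55 in CCNB1 and -85 in CDC25C. Among 35116 promoter windows of 300 bases (250 before and 50 after a start), 15.2% held TTTGAA, 1.45% held TTCGAA and 34.6% held CCAAT. Within the 120 bases before the start alone, the shares were 5.7%, 0.441% and 20.4%, and 1.27% of windows held TTTGAA together with CCAAT there. In the wider window of MASTL, TTTGAA was matched at -248 and 3, and CCAAT was not matched. A match is a match of letters and was not tested as a binding site.

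All 10 members were well above background on both arrays, and none was saturated. Of the 10, 5 were more than 3-fold lower with periostin siRNA, namely CDK1, CCNB2, CCNB1, CDC25C and PKMYT1. Over all 16052 genes with a ratio, 2.75% were lower by that much, with the 1095 genes well above background on 1 array alone counted at the least change their signals allow. CDK1, CCNB1 and CCNB2, 3 of the 10, were also more than 4-fold lower, against 1.71% of all genes. None of the members was more than 3-fold higher, against 3.37% of all genes, or even 2-fold higher, against 7.97%. Of the 10 ratios, 9 were below 0, against 45.5% over all genes. A further 2, CKS1B and CKS2, were between 2-fold and 3-fold lower, which makes 7 of 10 past 2-fold against 6.42% of all genes. The remaining 3, MASTL, CDC25B and WEE1, differed by at most 0.11 on the log2 scale. The median log2 ratio was -1.52 over the members and 0.06 over all genes. In RNA of a whole culture, fewer cells in G2 or mitosis and less of these RNAs per cell cannot be told apart.

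**Figure D1:**
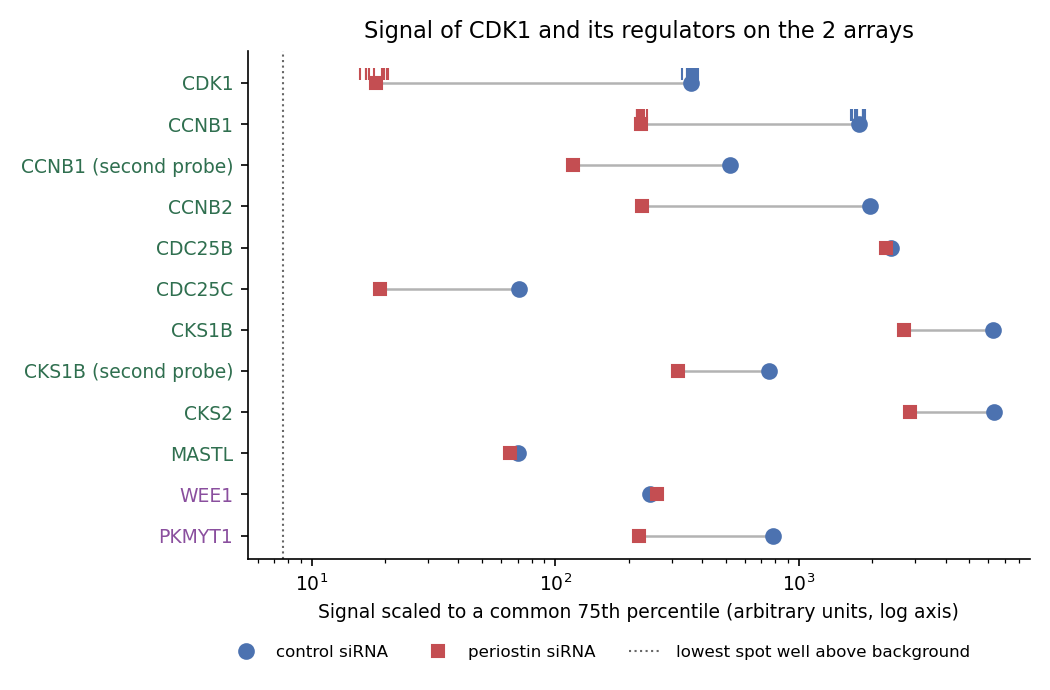
Signal of each member probe that was well above background, on a log axis in arbitrary units after scaling to a common 75th percentile. Circles are control siRNA, squares are periostin siRNA, short ticks above CDK1 and CCNB1 are their 10 single spots, activators are named in green and inhibitory kinases in purple. CDK1 moves from 360 to 18.4, while the markers of CDC25B, MASTL and WEE1 nearly coincide; signals may be compared along a row only, not between probes.

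CDK1, the kinase itself, had the lowest ratio of the 10 as reported. With another background correction (normexp, below) CCNB2 and CCNB1 lay lower. The 10 CDK1 spots read between 330.0 and 384 with control siRNA (median 363). With periostin siRNA they read between 15.8 and 20.6 (median 18.6). The spots of the 2 arrays did not overlap, and the dimmest control spot was 16.0 times the brightest periostin siRNA spot. The mean signal went from 360 to 18.4, a log2 ratio of -4.30 ± 0.16 (SD, n = 10 spots), or 19.6-fold lower. The CDK1 signal with periostin siRNA was thus 5.09% of that with control siRNA and remained above 7.65, the lowest signal flagged as well above background on that array. Of the 14957 genes well above background on both arrays, 12 had a lower ratio than CDK1. A further 474 genes were above background with control siRNA alone, and since their ratios are bounds, their place relative to CDK1 is not known except for the 7 whose bound was already lower. A further CDK1 probe, for another RefSeq transcript, was not well above background on either array, with a signal of 1.73 on both.

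The B-type cyclins, which bind and activate CDK1, came next. The 10 CCNB1 spots of the brighter probe read between 1644 and 1873 with control siRNA and between 216 and 237 with periostin siRNA. Again no spot of one array reached the range of the other, which is a separation of spots and not of cultures. The log2 ratio of CCNB1 was -2.98 ± 0.08 (SD, n = 10 spots), 7.88-fold lower, and it was the same without the 1 spot that carried an outlier flag. A second CCNB1 probe, for the same accession, gave 522 and 118, a log2 ratio of -2.15 ± 0.21, so that both probes were past 3-fold but differed in size by more than their errors. CCNB2 read 1963 with control siRNA and 228 with periostin siRNA, which is 8.63-fold lower (log2 ratio -3.11 ± 0.20). The change of CCNB2 and that of CCNB1 differed by 0.13 ± 0.22 on the log2 scale, within the error. As reported, CDK1 stood below CCNB2 by 1.19 ± 0.26, and this order was reversed with normexp.

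The CDC25 phosphatases, which remove the inhibitory phosphates from CDK1, did not move together. CDC25C, which acts around the onset of mitosis, read 71.1 with control siRNA and 19.1 with periostin siRNA, which is 3.72-fold lower (log2 ratio -1.90 ± 0.25). CDC25B, which is thought to start CDK1 activation at the centrosome, read 2388 and 2277, a log2 ratio of -0.07 ± 0.20. The change of CDC25B lay above that of CDC25C by 1.83 ± 0.32. CDC25A, the family member best known for acting at the G1/S transition as well, read 169.5 and 161, a log2 ratio of -0.07 ± 0.21, close to that of CDC25B.

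The CKS proteins both had intermediate ratios. CKS1B, which also serves the SCF-SKP2 ubiquitin ligase that targets p27, read 6245 with control siRNA and 2700 with periostin siRNA (log2 ratio -1.21 ± 0.20). Its second probe read 754 and 318, a log2 ratio of -1.25 ± 0.20, so the probes differed by less than their errors. CKS2 read 6336 and 2871, a log2 ratio of -1.14 ± 0.20. The paralogs were therefore 2.31-fold and 2.21-fold lower, and their changes differed by 0.07 ± 0.29. MASTL, the Greatwall kinase, read 70.4 and 65.2, a log2 ratio of -0.11 ± 0.21, which is within the error of no change.

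The inhibitory kinases went separate ways. WEE1, the nuclear kinase that phosphorylates CDK1 on tyrosine, read 245 with control siRNA and 262 with periostin siRNA (log2 ratio 0.10 ± 0.20). PKMYT1, its membrane-bound relative, which phosphorylates both the threonine and the tyrosine, read 786 and 220.0, a log2 ratio of -1.84 ± 0.20, or 3.57-fold lower. The change of WEE1 lay 1.93 ± 0.29 above that of PKMYT1, so the inhibitors differed from each other by more than PKMYT1 differed from CDC25C. The position of WEE1 relative to no change depended on the scaling: its ratio was -0.03 with the arrays scaled on the median, which lowers the median of all genes by 0.13, and it was above 0 in the other settings.

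**Figure D2:**
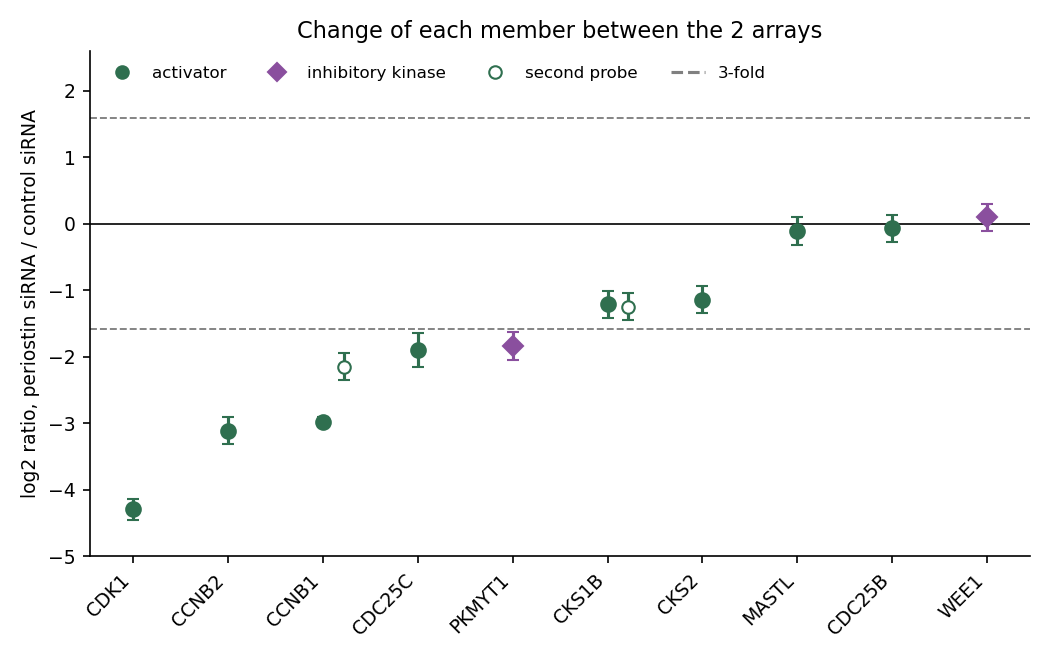
Log2 ratio of periostin siRNA over control siRNA for each member, ordered from lowest to highest. Circles are activators, diamonds inhibitory kinases, open circles second probes, and bars the error over spots (SD for CDK1 and CCNB1, propagated for the others); the dashed lines are 3-fold. CDK1, CCNB2, CCNB1, CDC25C and PKMYT1 lie below the lower line, and MASTL, CDC25B and WEE1 have bars that cross 0.

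Set side by side, the activators had a median log2 ratio of -1.55. Of the 8, 4 were more than 3-fold lower and 6 more than 2-fold lower, against 2.75% and 6.42% of all genes. The median of WEE1 and PKMYT1 was -0.87, a mean of 2 unlike values, with 1 of the 2 more than 3-fold lower. Against WEE1, CDK1 changed by -4.39 ± 0.26, CCNB1 by -3.08 ± 0.22 and CDC25C by -1.99 ± 0.32. Against PKMYT1, CDK1 changed by -2.46 ± 0.26 and CCNB1 by -1.14 ± 0.22, and CDC25C differed by -0.06 ± 0.32, within the error. These are differences of changes on the same arrays, which a constant factor per array does not alter. In the order of the ratios as reported, the neighbours CDK1 and CCNB2 stood apart by more than 2 errors, as did CCNB1 and CDC25C. So did PKMYT1 and CKS1B, and CKS2 and MASTL. Neighbours that did not were CCNB2 and CCNB1, CDC25C and PKMYT1, CKS1B and CKS2, MASTL and CDC25B, and CDC25B and WEE1. Of the 45 pairs of members, 39 differed by more than 2 errors. These errors hold no difference between cultures, and the share among pairs of all genes was not computed.

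The distances to the 3-fold line were not alike. CDK1, CCNB1 and CCNB2 were past 3-fold under each of 13 ways of processing the arrays. CDC25C and PKMYT1 lay within 2 errors of the line, which lies 1.58 below 0 on the log2 scale, and they were past it under 12 of the 13. Like CCNB2, they have 1 probe on 1 spot, so the other rules for probes and spots could not move them. The deposited table differs from the scanner values only by a constant per array. These settings are therefore no check of the 3 genes. The exception was normexp background correction (offset 50), which compresses the ratios of dim spots. It gave -0.73 for CDC25C, -1.51 for PKMYT1 and -2.39 for CDK1. The order changed as well: CCNB2 (-2.79) and CCNB1 (-2.66) then lay below CDK1, and CDC25C lay above CKS1B (-1.22) and CKS2 (-1.20). Among 45 probes printed 10 times whose signal with periostin siRNA lay within 2 times that of CDK1, the pooled SD of the log2 ratio between spots was 0.30. Over all 667 such repeated probes it was 0.12.

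**Figure D3:**
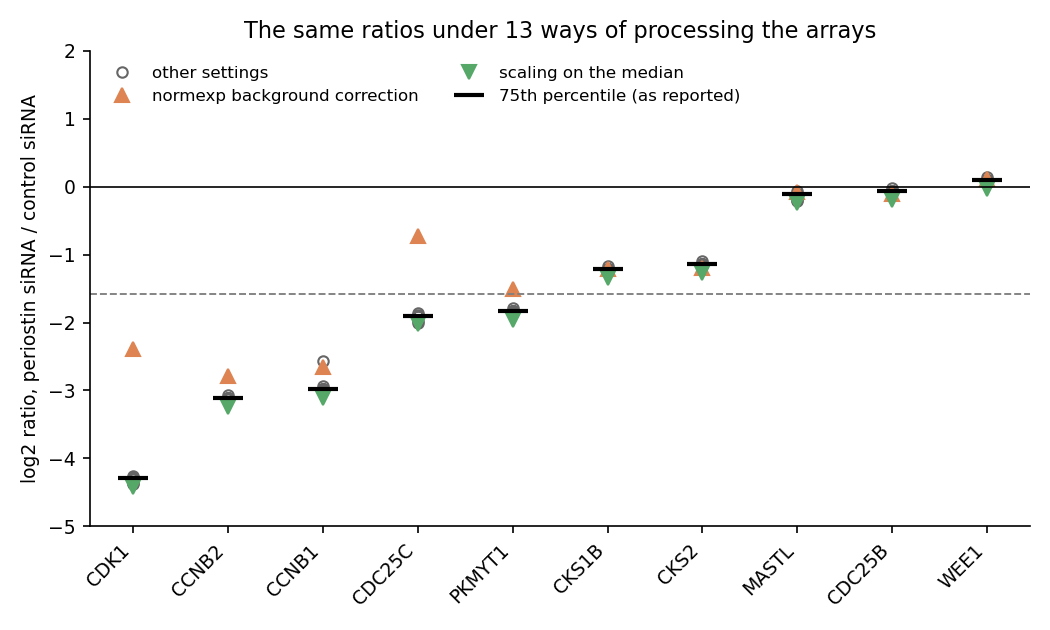
Log2 ratio of each member (vertical axis) under 13 ways of processing the arrays. Black bars are the values as reported, upward triangles the normexp background correction, downward triangles scaling on the median, open circles the other settings, and the dashed line 3-fold lower. CDK1 and CDC25C, both dim with periostin siRNA, move most under normexp, to -2.39 and -0.73, and WEE1 stays near 0 in all settings.

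Among the 14957 genes measured above background on both arrays, CDK1 ranked 13th from the lowest ratio, CCNB2 59th, CCNB1 67th, CDC25C 242nd and PKMYT1 260th. CKS1B and CKS2 ranked 618th and 683rd, and MASTL, CDC25B and WEE1 lay in the middle of the distribution, at 5454, 5941 and 8082. The nearest ratios to that of CDK1 were sought among these genes, members and genes with an outlier flag on any spot left out. They were KIF4A (-4.34 ± 0.30), KIF20A (-4.38 ± 0.34), NDC80 (-4.38 ± 0.21), PBK (-4.18 ± 0.21) and HMMR (-4.42 ± 0.21). TOP2A (-4.24 ± 0.25) was nearer than most of them but had 2 flagged spots. KIF4A and KIF20A are mitotic kinesins and NDC80 is a kinetochore protein. This likeness is over 2 arrays only and is a closeness of 1 ratio.

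**Figure D4:**
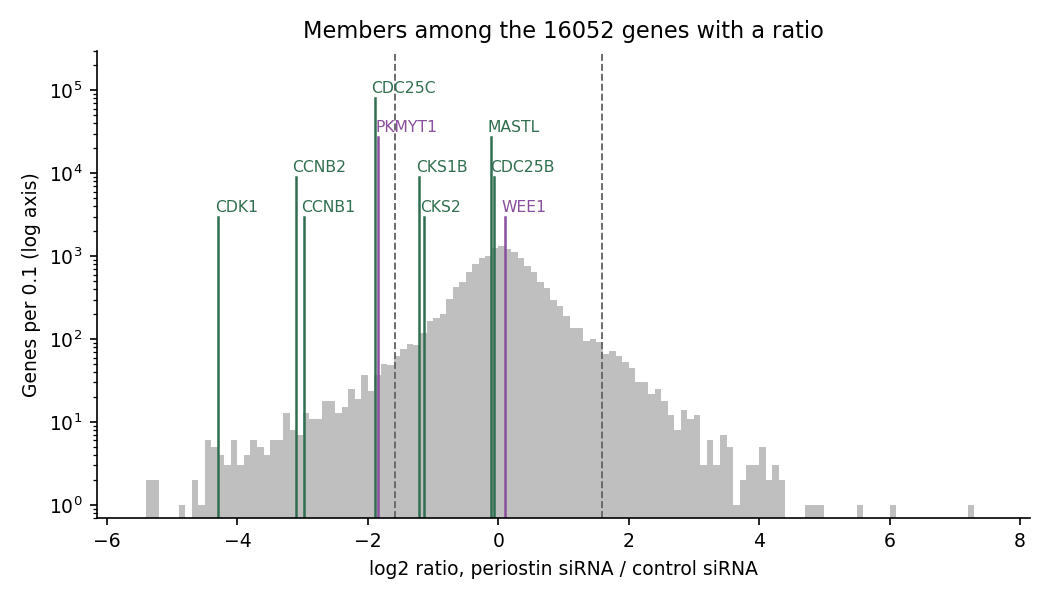
Histogram of the log2 ratios of the 16052 genes with a ratio, bounds included (horizontal axis; vertical axis, genes per bin of 0.1 on a log scale), with a line at each member. Green lines are activators, purple lines inhibitory kinases, dashed lines 3-fold. CDK1, CCNB2 and CCNB1 lie in the sparse lower tail, while MASTL, CDC25B and WEE1 lie at the peak.

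Apart from the members, CCNA2 and BORA were the mitotic entry genes counted past the 3-fold line. Of 35 such genes listed (close relatives of the members, upstream kinases, the Greatwall branch and the G2 checkpoint), 31 had a ratio, 2 were more than 3-fold lower (3 with scaling on the median, quantile normalization, loess or no filter on dim probes) and none was more than 3-fold higher, with a median of -0.19. Among the relatives, CCNA2, the cyclin of S phase and G2 that also binds CDK1, went from 213 to 27.4, a log2 ratio of -2.96 ± 0.19, close to that of CCNB1. CDK2 went from 90.9 to 44.0, a log2 ratio of -1.05 ± 0.22. CCNB3, a B-type cyclin best known from meiosis, was dim on both arrays, at 8.11 and 16.9, with a log2 ratio of 1.06 ± 0.37, and WEE2 was not well above background on either array.

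Upstream of the switch, AURKA and its cofactor BORA, which together activate PLK1, were both lower. BORA went from 121 to 37.3, a log2 ratio of -1.70 ± 0.21, and AURKA from 724 to 289, a log2 ratio of -1.33 ± 0.20. PLK1, which acts on CDC25C, WEE1 and PKMYT1, had no spot that could be named through the RefSeq accessions used here. The spot named for PLK1 in the study's own list went from 123 to 20.3, a log2 ratio of -2.60 ± 0.25. That list holds only spots past 3-fold, so PLK1 is left out of every count here. The CDK-activating kinase, which phosphorylates CDK1 on its activation loop, was closer to no change, with CDK7 at -0.16 ± 0.20, MNAT1 at 0.02 ± 0.20 and CCNH at -0.85 ± 0.20.

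Downstream of MASTL no gene was past 2-fold. Of the 10 genes of the Greatwall branch and PP2A-B55, 8 had a ratio, between -0.86 (PPP2R1B) and 0.10 (PPP2CB) by their brightest probes. A second probe of the B55 subunit PPP2R2D had a log2 ratio of 0.61, against -0.24 for the brighter one. The MASTL substrates ENSA and ARPP19, which block PP2A-B55 once phosphorylated, had log2 ratios of -0.42 ± 0.20 and -0.21 ± 0.20, and the B55 subunit PPP2R2A one of -0.16 ± 0.06 (SD, n = 10 spots). The G2 checkpoint list, which restrains CDC25 phosphatases, had a median of -0.18 over 14 genes. Leaving aside CLSPN, whose ratio is a bound, none was past 3-fold in either direction. CHEK1, the checkpoint kinase that phosphorylates CDC25 proteins, had a log2 ratio of -0.22 ± 0.20, and GADD45A, a stress-induced inhibitor of the CDK1 and cyclin B1 complex, was the highest at 0.67 ± 0.20. CLSPN, the adaptor through which ATR activates CHEK1, had a signal of 22.7 with control siRNA and was not well above background with periostin siRNA, at least 2.97-fold lower, so it may or may not lie past 3-fold.

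**Figure D5:**
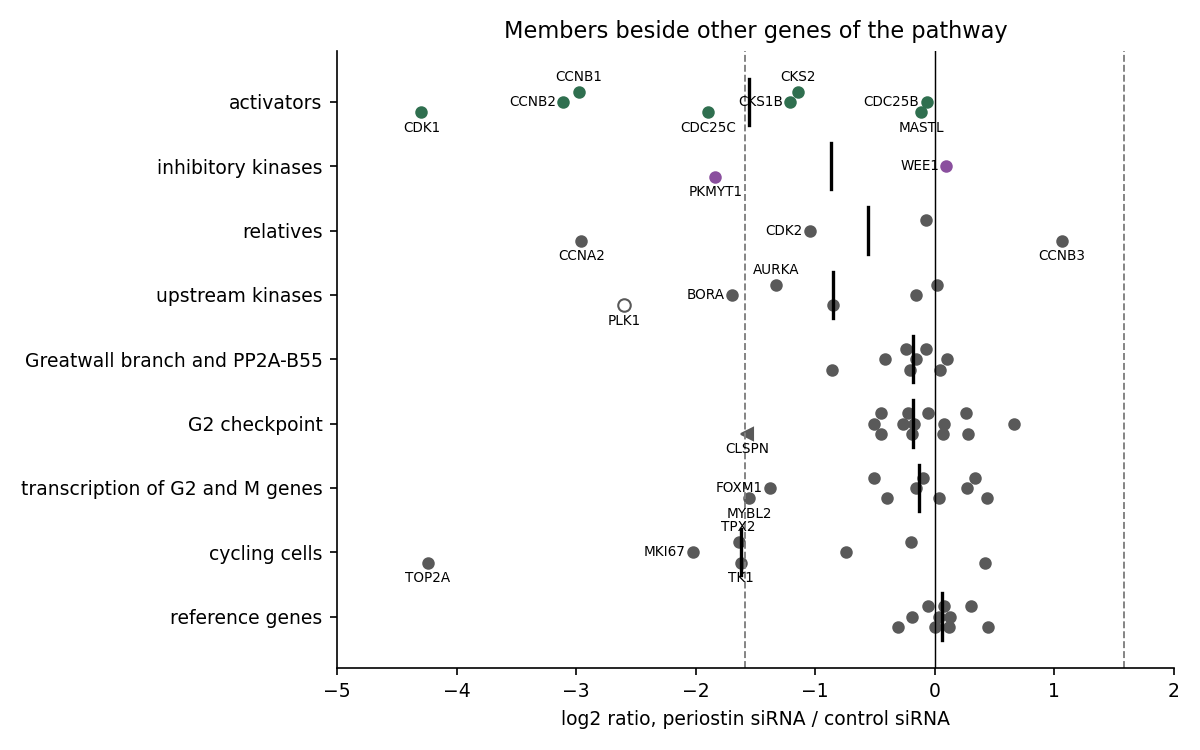
Log2 ratio of periostin siRNA over control siRNA for each measured gene of the members' 2 groups and of 7 other lists, with 1 point per gene and a vertical bar at each median. Dashed lines are 3-fold, the left-pointing triangle is a bound, and the open circle is PLK1, named through the study's list and left out of the median. By the brightest probe of each gene, the activators reach -4.30, the Greatwall branch stays between -0.86 and 0.10, and the reference genes stay between -0.30 and 0.44.

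Regulators of the transcription of G2 and M genes included a pair past 2-fold and none past 3-fold. Of 10 listed, FOXM1, which binds G2 promoters, had a log2 ratio of -1.38 ± 0.20 and MYBL2, the B-Myb factor that joins the MuvB core, one of -1.55 ± 0.23. The NF-Y subunits, which bind CCAAT boxes, were at -0.16 ± 0.20 (NFYA), 0.27 ± 0.21 (NFYB) and 0.44 ± 0.20 (NFYC), and NFYC was the highest of the 10. Of the 161 genes other than the members that had a ratio and held TTTGAA and CCAAT in the 120 bases before a start, 25 (15.5%) were more than 3-fold lower and 2 (1.24%) more than 3-fold higher. Of 12399 genes other than the members with any promoter window and a ratio, 2.56% were lower and 3.28% higher by that much. With TTTGAA in that stretch, whether or not CCAAT was there, 7.38% of 637 genes were lower. With CCAAT there, whether or not TTTGAA was, 3.51% of 3502 genes were lower. A part of the motifs in the changes was not tested. The median of the 161 genes was -0.12 against 0.05 for the 12399. Of the members with both motifs, CDK1, CCNB2 and CDC25C were past 3-fold and CKS1B and CKS2 past 2-fold. Both motifs lay before 1 of 2 annotated starts in CDK1 and before 1 of 4 in CDC25C. PKMYT1, 3.57-fold lower, and WEE1 had no promoter window, so their motifs are not known. CCNB1 was 7.88-fold lower without a TTTGAA or TTCGAA match in its window, where other variants of the region were not searched.

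Genes that mark dividing cells in general were lower in part. Of 7 such genes, 4 were more than 3-fold lower, TOP2A (-4.24 ± 0.25), MKI67 (-2.03 ± 0.22), TPX2 (-1.64 ± 0.20) and TK1 (-1.62 ± 0.20), while the replication factor PCNA had a log2 ratio of 0.42 ± 0.20 and MCM2 one of -0.20 ± 0.20. Of the 48 genes of a standard G2/M list that are no members, 31 were more than 3-fold lower, with a median of -2.43. Of the 41 measured genes of the matching S phase list, 8 were more than 3-fold lower, with a median of -0.63. Among the 49 genes of the whole G2/M list that were above background on both arrays, CDK1 had the 7th lowest ratio. CCNB2 had the 16th, CDC25C the 27th, CKS1B the 35th and CKS2 the 36th. A further 4 genes of the G2/M list were above background with control siRNA alone and have no rank.

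By the brightest probe of each, the 10 reference genes ranged from -0.30 (HPRT1) to 0.44 (B2M), with GAPDH at 0.04 ± 0.04 (SD, n = 10 spots). The arrays were alike in detection, with 58.0% of 58717 spots well above background with control siRNA and 58.9% with periostin siRNA. All 9 fibroblast markers were above background on both arrays, with log2 ratios between -0.54 (COL1A1) and 0.83 (LUM). Of 6 epithelial markers, 5 had a ratio, all above 0, from 0.48 (KRT18) to 1.97 (EPCAM, 34.1 and 133). A second KRT8 probe was at 0.08, and CDH1 was not well above background on either array. Of 4 endothelial markers, 3 had a ratio, up to 0.15 (VWF), with 0.79 at a second VWF probe. KDR was above background with control siRNA alone (9.64, at least 1.26-fold lower with periostin siRNA). PECAM1 was not well above background on either array. The 3 immune markers with a ratio were all above 0 and up to 0.68 (CD68, 1505 and 2414), CD3E was above background with periostin siRNA alone (9.40, at least 1.26-fold higher), and PTPRC was dim at 17.3 and 24.7. The part of the epithelial and immune markers in the ratios of the members was not tested.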

How the data were processed

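Total RNA of MRC-5 cells with control siRNA (1 culture) or periostin siRNA (1 culture, 10 nM, 48 h) was labelled with Cy3 and hybridized to 1 single-colour Agilent 8x60K array each. The authors deposited the scanner intensity of each array, background-subtracted and detrended by Agilent Feature Extraction, for which the file headers give version 11.5.1.1 and the submitters' processing notes 12.0.3.1. A table of normalized intensity deposited beside them equals the scanner values times a constant, 3.65 on the control array and 3.54 on the other. The array design names hg19, and RefSeq of GRCh38.p14 served for gene names (65.1% of 58717 spots) and promoter sequences only.

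The processed signal of each spot was scaled so that the 75th percentile of the periostin siRNA array (383) met that of the control array (372). Control spots were left out, repeated spots were averaged as log2 values, and the brightest probe by mean log2 signal stood for a gene. A gene not well above background on 1 array got a bound, and on both arrays no ratio. The 3-fold threshold is that of the study. The members, the lists and the rule for the named genes were chosen with earlier results of these data known. The rule named all members, POSTN, the genes of other lists that passed 3-fold or were highest or lowest in their list, 12 genes acting on the pathway, and the 5 genes nearest to CDK1. Those 5 were taken from genes other than the members, above background on both arrays and with no spot flagged as an outlier. The S phase and G2/M lists were described by counts, medians and ranks of the members alone. Other genes of the lists are named as members of a complex or family, chosen after their values were seen.

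Scripts used Python 3.11.15, numpy 2.4.6, pandas 2.3.3, R 4.3.3, limma 3.58.1 and the G2/M list of Seurat 5.3.0, and were tested on simulated data. The number of arrays limits the precision. Alternatives were the normexp background correction (offset 50, on the median spot brightness), no scaling, other scalings (median, spots above background on both arrays, quantile, loess with span 0.3), the deposited table, other rules for probes and spots, and thresholds of 2-fold and 4-fold. Experiments of the study other than the arrays were not analysed here.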

Additional observations from a re-analysis of the deposited data

How the results depend on the processing

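No paired analysis was possible because there is 1 array per group. No alternative turned the direction of a member past 2-fold, but WEE1, at 0.10 as reported, was at -0.03 with scaling on the median. The order of the members changed with the normexp background correction, where CCNB2 and CCNB1 lay below CDK1. With the normexp background correction, 3 members were more than 3-fold lower, the median log2 ratio was -1.21 for the activators and -0.70 for the inhibitory kinases, CDK1 minus WEE1 was -2.51, 1 other mitotic entry gene was past 3-fold, POSTN was at -2.99, and 190 genes were lower and 143 higher, so that 42.9% of the calls were higher against 55.1% as reported. Scaling on the median gave -1.68 for the activators and -0.999 for the inhibitory kinases, with 46.3% of the calls higher (525 genes lower, 453 higher). Without a filter on dim probes 686 genes were lower and 878 higher. With scaling on the median, quantile normalization, loess or no filter on dim probes, 3 other mitotic entry genes were past 3-fold, against 2 as reported. At 2-fold, 5 other mitotic entry genes were lower, and 1031 genes were lower and 1279 higher. At 4-fold, 3 members and 1 other mitotic entry gene were lower, and 274 genes were lower and 278 higher. The ratio of CCNB1, -2.98 as reported, was -2.56 with the mean over probes and -3.11 with scaling on the median. The other alternatives moved the values above by less than the error over spots, and the counts by less than 1.5 times. CDC25C, CDK1 with periostin siRNA and MASTL were dim, and a change smaller than about 2 errors was not detectable for single spots. Neither the spread between cultures nor that between siRNAs was measured.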
